A study of Drosophila melanogaster with 2 samples.

Results

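A set of 8 genes of mesoderm and heart development were followed in a ChIP-seq map of CG10147, a putative zinc finger protein of the fly Drosophila melanogaster. The genes, listed by FlyBase 6.54 symbol, were twi, sna, Mef2, tin, bap, bin, slou and lbe, 8 of 13945 annotated protein-coding genes. For each one, peaks were taken whose summit lay from 5 kb upstream of the gene to 5 kb downstream of it. The flies carried a CG10147 transgene with GFP at the carboxyl end, and chromatin from whole mixed-sex embryos aged 0 to 24 hours was sheared to 200 to 800 bp and precipitated with an antibody to GFP. There was 1 group of 2 libraries, biological replicates 2 and 3, and no second condition. The labels do not name the promoter of the transgene. The embryos hold all tissues and all embryonic stages, so a peak cannot be assigned to mesoderm, and no RNA was measured against which tissue markers could be checked.

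These genes act in a known order. The twi product, a basic helix-loop-helix activator that binds E-boxes, starts the mesoderm programme, and sna, which encodes a zinc finger repressor, keeps other programmes off there. Among the genes activated downstream are Mef2, for a MADS-box factor needed for muscle differentiation, and tin, for the NK homeodomain factor needed for heart and dorsal mesoderm. The genes bap, for an NK homeodomain factor, and bin, for a forkhead factor, specify visceral mesoderm, the source of gut muscle. The homeodomain genes slou and lbe give single muscles, and for lbe also heart cells, their identity. Whether CG10147 occupies DNA near them is the question these peaks address.

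Binding was found close to tin and bin, and the sequence beneath their peaks is shown here with that of 2 neighbouring sites on the same arm as tin. Each line is 200 bp of the RefSeq copy of the Release 6 assembly (dm6 coordinates), centred on the summit, on the plus strand from 5′ to 3′. Capitals mark matches on either strand to the E-box (CANNTG), the Tinman-type site (CACTTNA), the site of the factor Dref (TATCGATA), the homeodomain core TAATTA, and the A/T-only words AAAATAT, which can overlap the next, TAAAATA, and also TTTAAAA. Overlapping matches are merged. The A/T-only words were known from earlier results of these same data, so finding them here is no independent support.
tin upstream peak, chr3R:21378666-21378865: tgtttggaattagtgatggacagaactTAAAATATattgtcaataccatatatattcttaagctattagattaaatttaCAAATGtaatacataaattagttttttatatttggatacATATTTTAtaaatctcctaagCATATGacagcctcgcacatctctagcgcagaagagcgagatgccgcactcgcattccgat
mod(mdg4) promoter peak beside tin, chr3R:21377320-21377519: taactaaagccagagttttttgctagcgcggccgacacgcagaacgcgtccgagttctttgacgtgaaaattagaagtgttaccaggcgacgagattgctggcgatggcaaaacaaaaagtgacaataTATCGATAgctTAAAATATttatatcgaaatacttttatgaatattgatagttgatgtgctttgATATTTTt
bin upstream peak, chr3L:6989224-6989423: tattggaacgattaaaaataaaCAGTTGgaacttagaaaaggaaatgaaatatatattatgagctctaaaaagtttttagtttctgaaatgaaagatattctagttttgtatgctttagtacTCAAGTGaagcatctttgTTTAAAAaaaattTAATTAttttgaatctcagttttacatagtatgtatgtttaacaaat
lbl intron peak, chr3R:21420044-21420243: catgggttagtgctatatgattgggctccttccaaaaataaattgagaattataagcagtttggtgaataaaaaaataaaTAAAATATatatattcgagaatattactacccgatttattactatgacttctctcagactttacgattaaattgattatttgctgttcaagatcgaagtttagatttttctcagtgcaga
The tin sequence holds 2 E-boxes, one of them CATATG, which is a form bound by Twist, and A/T-only words at 2 places. The bin sequence is the poorest in G and C of all 12 windows described below, at 23.0%, and holds 2 E-boxes, 1 Tinman-type site, 1 TAATTA and 1 TTTAAAA. The mod(mdg4) sequence holds the Dref site, and the lbl sequence holds no E-box. Every sequence shown holds an A/T-only word, which is not typical of the 12 windows. Among those, AAAATAT was in 3, TTTAAAA in 2 and TAAAATA in 2. The remaining IDR peak of the tin window, with 51.0% G and C and not shown, holds none of these words.

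Peaks were unevenly spread over the 8 genes. In the list thresholded by reproducibility between replicates (irreproducible discovery rate, IDR; 4576 peaks), 3 of 8 windows held a summit (37.5%), against 47.4% of all protein-coding genes. Mef2 had 8 such peaks, tin 3 and bin 1. The windows of twi, sna, bap, slou and lbe had none. At the promoter, taken as within 500 bp of an annotated transcription start site (TSS), 2 of 8 genes had an IDR peak, tin and Mef2 (25%, against 20.3% of protein-coding genes). Over 8 genes these shares lie near the background, and no excess or lack is read from them. The peaks came to 5.75 per 100 kb of window (208.8 kb after overlaps were merged), against 3.93 over all protein-coding windows and 3.42 over the genome, with most of them at Mef2.

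**Figure D1:**
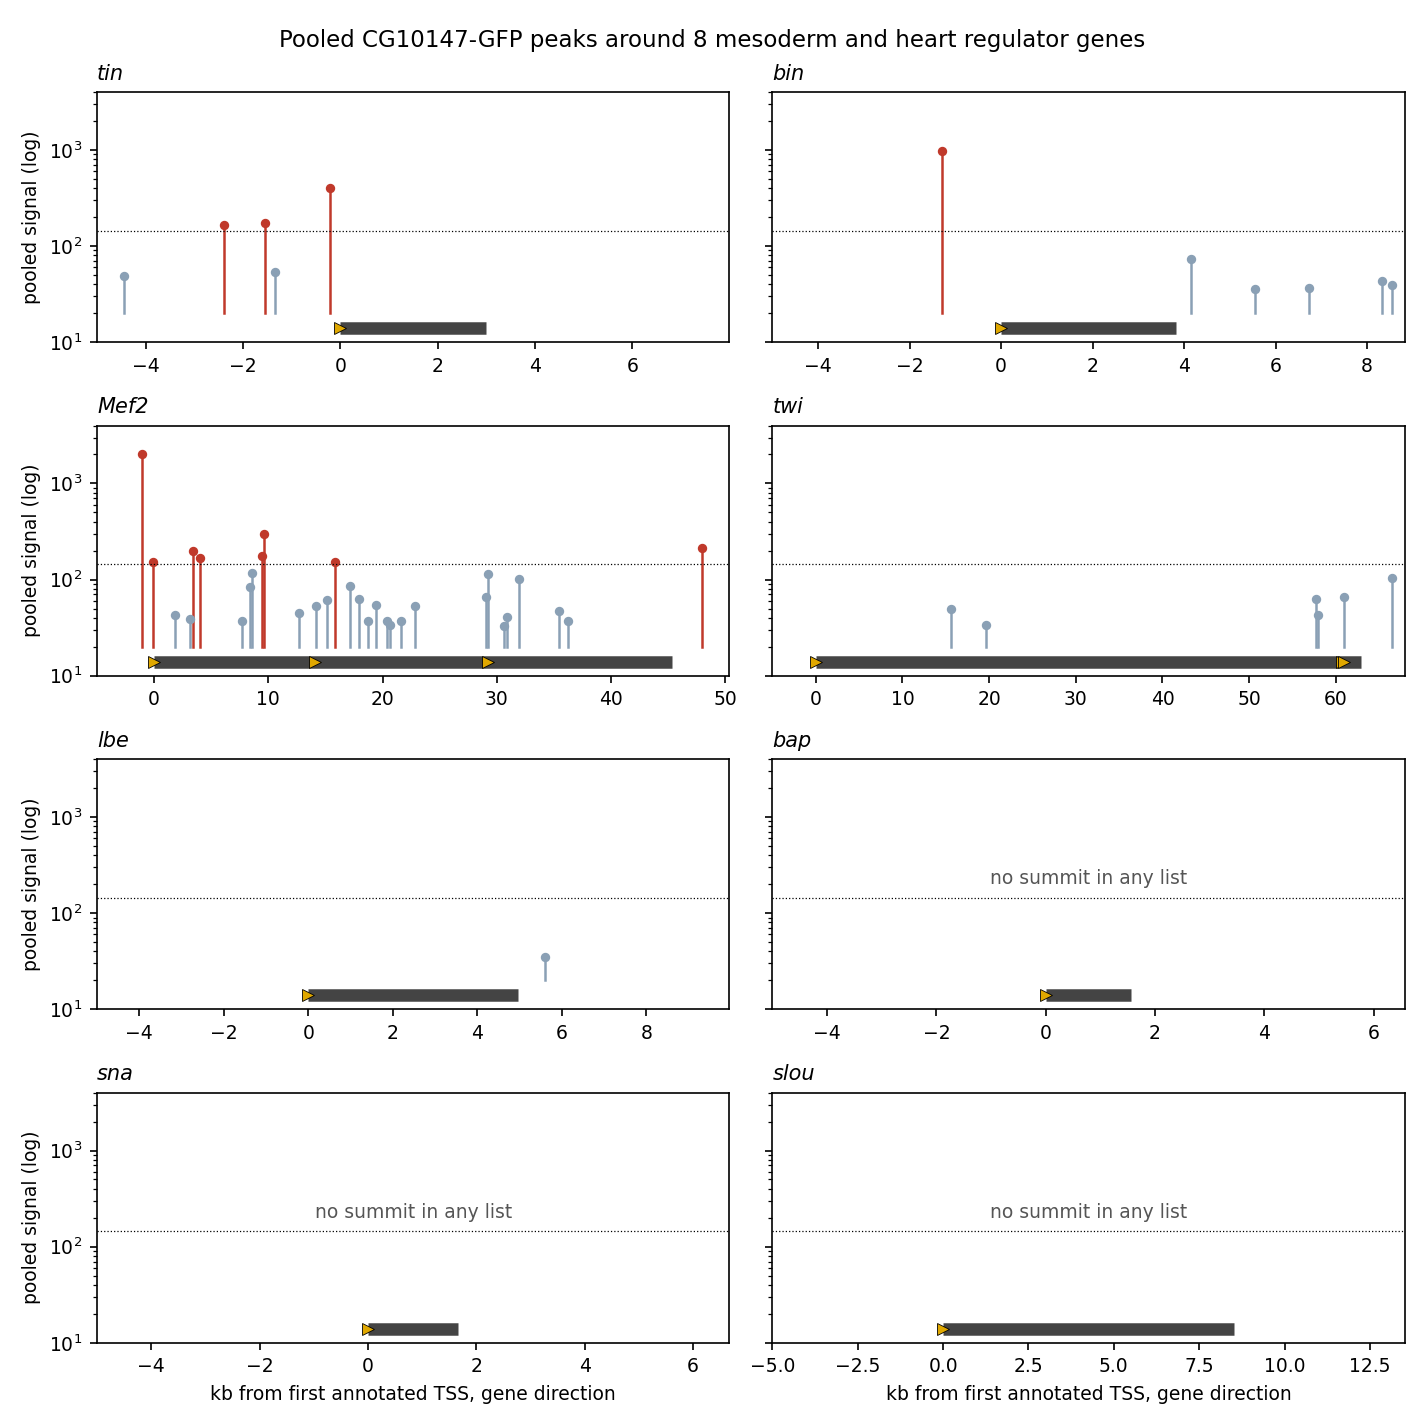
Pooled peaks within 5 kb of each gene. The horizontal axis is distance in kb from the first annotated TSS in the gene's own direction, the vertical axis is pooled signal on a log scale, red stems are IDR peaks, grey stems are weaker pooled peaks, the dotted line is the lowest IDR signal (144.6), dark bars are genes and yellow arrowheads are annotated TSSs; Mef2 carries 8 red stems, tin 3 and bin 1, and bap, sna and slou have no stem of any kind.

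The strongest peak assigned to a member itself lay upstream of bin (FBgn0045759, 3L, 6990622 to 6994447, plus strand). Its region ran from 6989082 to 6989550, with the summit in intergenic DNA 1298 bp upstream of the only bin TSS. The pooled signal, in the units of the authors' peak caller, was 964, rank 160 of 4576. The same site had a signal of 267 in the replicate 2 list (rank 347 of 30000) and 687 in the replicate 3 list (rank 117 of 30000). It was therefore a high-ranking site in each library, with replicate summits 24 bp and 0 bp from the pooled one. Signals are on each list's own scale and are not compared between lists. Of all protein-coding genes, 473 had a stronger IDR peak in their window. The other 5 pooled peaks of the bin window lay downstream, with signals from 35.8 to 73.3, and had the TSS of Mp, a collagen gene, as the nearest. No IDR or pooled summit lay within 500 bp of the bin TSS. The replicate 2 list alone held a summit there, at a signal of 17.7 (rank 27405), close to the lowest signal of that list, 16.1.

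At tin (FBgn0004110, 3R, 21378977 to 21381970, plus strand) the main peak lay just before the gene. The region from 21378656 to 21378867 had its summit 211 bp upstream of the TSS, a pooled signal of 398 and rank 942. Replicate 2 gave it 149 (rank 1058) and replicate 3 gave it 243 (rank 1030), so the libraries placed it almost alike. Among the 2836 protein-coding genes with an IDR promoter peak, for which the median of the strongest promoter signal was 257, tin ranked 756. The summit lay in sequence that the assembly soft-masks as repetitive.

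The 2 other IDR peaks in the tin window were nearer to its neighbour mod(mdg4), which encodes a family of chromatin insulator proteins and is read from the opposite strand. One lay 19 bp upstream of a mod(mdg4) TSS (21377228 to 21377611; signal 174, rank 3501), with signals of 81.2 in replicate 2 (rank 3258) and 89.5 in replicate 3 (rank 4615). The other lay in a mod(mdg4) intron 805 bp past that TSS (21376404 to 21376787; signal 165, rank 3761), with 79.4 in replicate 2 (rank 3382) and 54.6 in replicate 3 (rank 9464). Both were weaker than the tin peak in every list. No summit of any list lay inside the tin gene or in its 5 kb downstream flank.

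Mef2 (FBgn0011656, 2R, 9913496 to 9958858, minus strand) is a gene of 45363 bp with 3 annotated TSSs, and its window held the most peaks of the 8. Per length, its IDR peaks (14.5 per 100 kb) were sparser than those of the tin window (23.1 per 100 kb), while its pooled peaks (56.0 per 100 kb) were denser than those of the bin window (43.4) and the tin window (38.5). It held 8 IDR peaks, a number reached or passed by 33 protein-coding genes (0.237%). Windows of long genes hold more peaks, and among 474 genes within 1.5 times the length of Mef2, a comparison chosen after its values were seen, 14 had 8 or more and the median was 1. The strongest of the 8 was not at Mef2. It lay 1029 bp upstream of the first Mef2 TSS but 155 bp upstream of that of Pdrg1 and inside Pal1, which encodes an enzyme of neuropeptide amidation (9959718 to 9960123). Its signal was 2000.5 (rank 24), with 690.6 in replicate 2 (rank 53) and 1374 in replicate 3 (rank 13). The pooled summit was soft-masked. The replicate 3 summit had a Pal1 TSS as the nearest, 161 bp upstream of it, so the nearest gene differed between lists. At the far end, a peak of signal 213 (rank 2559) sat at the TSS of Etf-QO, which encodes a mitochondrial flavoprotein oxidoreductase, 0 bp from it. The other 6 peaks had a Mef2 TSS as the nearest.

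Those 6 were modest in signal, from 153 to 295, against a median of 228.7 over all IDR peaks. The first Mef2 promoter had a peak 85 bp upstream of its TSS (9958751 to 9959134), with a signal of 153 (rank 4211), 65.5 in replicate 2 (rank 4748) and 91.3 in replicate 3 (rank 4477). These ranks lay close to the cut of 4576 in every list. Of 2836 genes with an IDR promoter peak, Mef2 ranked 2659.

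In intronic sequence between the first and the second TSS lay 4 peaks. The strongest, 9949098 to 9949331, had a signal of 295 (rank 1530), with 136 in replicate 2 (rank 1269) and 169.8 in replicate 3 (rank 1782). A second summit 202 bp away (9949442 to 9949540, signal 176) had 28.9 in replicate 2 (rank 15672) and 119.6 in replicate 3 (rank 3020), so the libraries differed most in rank at that site. Nearer the first TSS, the peak from 9955289 to 9955672 had a signal of 198, with 105 in replicate 2 (rank 2054) and 90.8 in replicate 3 (rank 4506). The peak from 9954640 to 9955023 had a signal of 169, with 60.3 in replicate 2 (rank 5413) and 95.7 in replicate 3 (rank 4141), and its summit was soft-masked. The sixth peak, 9942798 to 9943181, was in a 5' UTR exon 1774 bp past the second TSS, with a signal of 153, 53.1 in replicate 2 (rank 6624) and 101 in replicate 3 (rank 3835).

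Below the IDR cut, each of the other Mef2 promoters had a pooled peak as well. At the third TSS the summit lay 25 bp downstream, with a signal of 113 (rank 6555). Replicate 2 held it at rank 4346, and replicate 3 had no summit within 100 bp of it but had one 116 bp upstream of the TSS, at a signal of 67.7 (rank 7006). A second pooled summit lay 197 bp upstream of the same TSS, with a signal of 65.3 (rank 13465). At the second TSS the signal was 53.1 (rank 17441), with rank 23915 in replicate 2 and 20258 in replicate 3. In all, 31 pooled peaks lay in the Mef2 window, against a median of 12 for genes of like length.

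**Figure D2:**
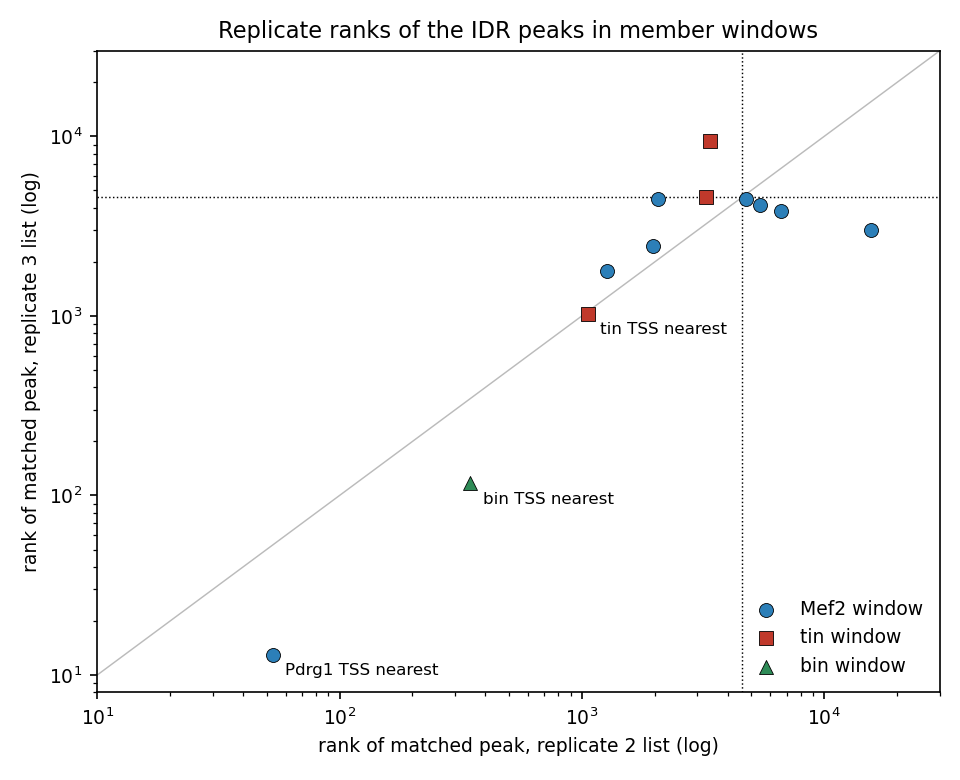
Ranks of the 12 IDR peaks in the windows of Mef2 (circles), tin (squares) and bin (triangle) in each replicate's own list of 30000 peaks, both axes on a log scale. Dotted lines mark rank 4576, the length of the IDR list, and the grey line marks equal ranks; 6 points lie inside both dotted lines, among them those nearest to the TSSs of Pdrg1, bin and tin, which are labelled.

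All 12 IDR peaks were matched by summits at most 100 bp away in each replicate list, as were 4117 of the 4576 in the whole list (90.0%). Restricting each replicate to its 4576 strongest peaks left 6 of the 12 in both. The share of all IDR peaks kept by this restriction was not counted, so the 6 are not read as few or many. Of the rest, 4 were in the strongest set of replicate 3 and 2 in that of replicate 2. The IDR list is a cut of the pooled list by signal, so a place in it does not by itself show a site in each library. The 37 weaker pooled peaks of these windows had signals from 33.1 to 116 and a median of 47.3. Of them, 12 (32.4%) were matched in this way in both, as were 32.4% of all weaker pooled peaks. A −log10 q under 1 in the authors' list was held by 25 of them. The share of all weaker pooled peaks under that value was not counted, so the 25 are not read as a trait of these windows.

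The 5 genes with no IDR peak fell into different cases. The gene at the top of the programme, twi (FBgn0003900, 2R, 22985374 to 23048325, plus strand), had 6 weaker pooled peaks. Its annotated span of 62952 bp reaches far upstream of 2 closely spaced TSSs near its 3′ end and holds other genes. A summit lay 58 bp upstream of the last TSS, with a pooled signal of 65.6, rank 13393 of 30000 and a −log10 q of 1.30. Replicate 2 had a summit 77 bp away at a signal of 20.6 (rank 23512), and replicate 3 had none within 100 bp. Both replicate lists did hold a summit just past the second twi TSS. It lay 27 bp past that TSS in replicate 2 (33.4, rank 13085) and 48 bp past it in replicate 3 (32.5, rank 18935). The strongest peak of the window, at a signal of 103 (rank 7430), lay 5542 bp downstream of the last TSS. That peak was at rank 14681 in replicate 2 and 6863 in replicate 3. The pair at the promoter of CG42741 inside the span had signals of 62.8 and 43.3. Of the 329 genes within 1.5 times the length of twi, 223 (67.8%) had an IDR peak in the window.

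At lbe (FBgn0011278, 3R, 21441577 to 21446537, minus strand) the pooled list held a single peak, at a signal of 34.7 (rank 27632 of 30000, −log10 q of 0.378), past the 3′ end of the gene. Replicate 2 held it at a signal of 26.7 (rank 17370) and replicate 3 did not. The only replicate 3 peak of the window was at another place, with a signal of 22.4 (rank 28731). These values lie close to the lowest signals of the lists, which were 31.9 pooled, 16.1 in replicate 2 and 21.5 in replicate 3.

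For sna (FBgn0003448, 2L, 15476593 to 15478260, minus strand), bap (FBgn0004862, 3R, 21388880 to 21390449, plus strand) and slou (FBgn0002941, 3R, 21548661 to 21557182, minus strand), no list held a summit anywhere in the window. Pooled summits were present for 5 of 8 members (62.5%), against 73.8% of protein-coding genes, and summits of any of the 4 lists also for 5 of 8, against 81.8%. Pooled promoter peaks were present for tin, twi and Mef2, 3 of 8 (37.5%), against 44.8%. A window without a pooled summit is common among genes as short as sna and bap. Windows empty in all 4 lists, a stricter condition, were not counted by gene length. Of 4580 genes within 1.5 times the length of sna, 28.7% had no pooled summit in the window, as did 29.2% of 4566 genes for bap and 16.8% of 1549 genes for slou. The 3 windows held no unsequenced base, and 10.9% to 16.0% of their sequence was soft-masked. Since read depth is unknown, the lists show that no peak was detected there and not that binding was absent.

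**Figure D3:**
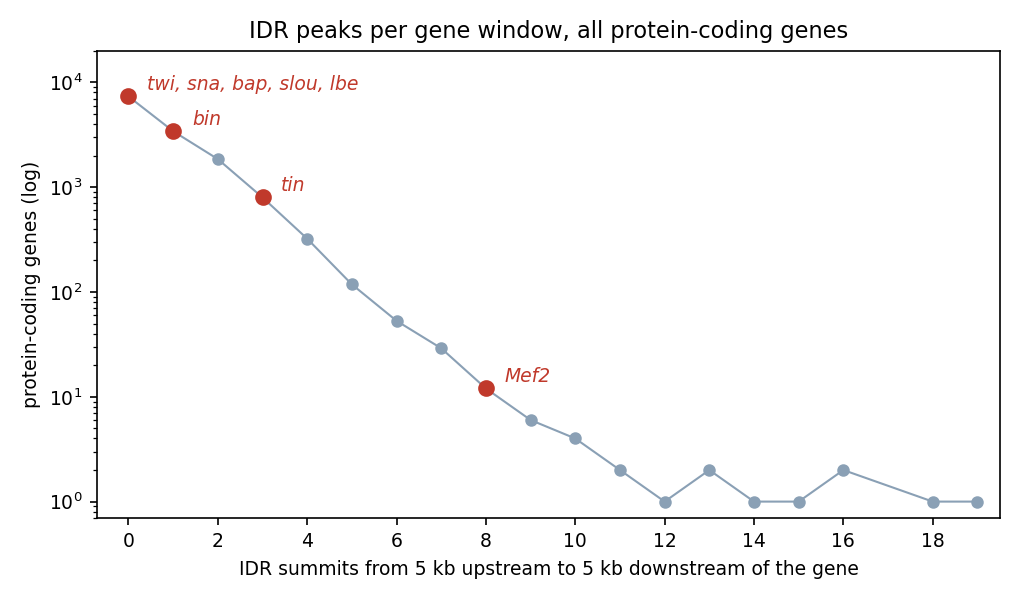
Number of protein-coding genes (log scale) by the count of IDR summits from 5 kb upstream to 5 kb downstream of the gene. Points in red hold the members: twi, sna, bap, slou and lbe share the count of 0 with 7329 genes in all, and Mef2 stands at 8 with 12 genes.

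The distance from a gene's TSS to the nearest IDR summit put the members in the order Mef2 (85 bp), tin (211 bp), bin (1298 bp), bap (10.1 kb), twi (18.1 kb), sna (20.8 kb), lbe (26.4 kb) and slou (33.6 kb). The median over protein-coding genes was 7.45 kb, so 3 members lay nearer than it and 5 farther. For slou, 15.3% of protein-coding genes lay farther from an IDR summit and 4.66% farther from a pooled one, the nearest of which was 24.5 kb away. For bap the nearest summit in either list was the tin peak.

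The sna gene lay in a stretch of 319.9 kb without an IDR summit, the 12th longest of 4570 such stretches, whose median was 8.89 kb. It was not empty of weaker peaks, since 42 pooled summits lay in it. It ended at the promoter of lace, a gene of sphingolipid synthesis, where the nearest IDR peak had a signal of 263. The stretch held 21 whole protein-coding genes and no unsequenced base. A gene falls more often into a long stretch than into a short one, so the distances above are the fairer measure.

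**Figure D4:**
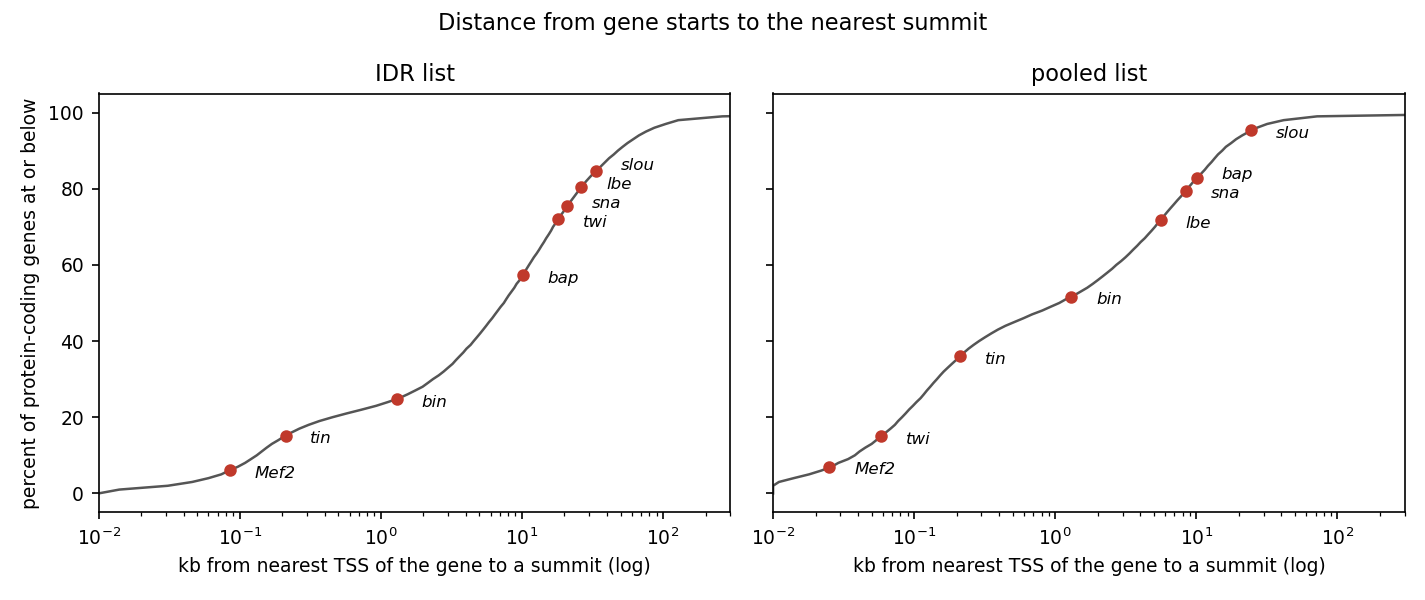
Distance in kb (log scale) from the nearest TSS of a gene to the nearest summit of the IDR list (left) and the pooled list (right). The line gives the percent of all protein-coding genes at or below each distance and red points are the 8 members; in the IDR panel Mef2, tin and bin lie under 2 kb and the other 5 beyond 10 kb.

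The members tin, bap, lbe and slou, belong to the NK homeobox cluster on 3R, a set of neighbouring homeodomain genes that also includes lbl and C15. From 5 kb before tin to 5 kb past slou, 188.2 kb, there were 6 IDR peaks, or 3.19 per 100 kb, close to the genome's 3.42. The pooled list was sparser there than elsewhere, with 10 peaks or 5.31 per 100 kb against 22.4 for the genome. Replicate 2 gave 4.25 per 100 kb against 22.4, and replicate 3 gave 7.97 against 22.4, so both libraries were below the genome's value. Other spans of this length were not counted, so how unusual this is cannot be told.

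Of the 6 IDR peaks, 3 were those at tin and mod(mdg4). Another lay between genes (signal 147, rank 4452), with CheB93b as the nearest TSS. Replicate 3 held it at a signal of 64.7 (rank 7468), and replicate 2 had no summit within 100 bp. The site in the lbl intron, 41.2 kb past the tin TSS, had a signal of 301 (rank 1486), with 123 in replicate 2 (rank 1503) and 172 in replicate 3 (rank 1759). The strongest of the cluster, at 624 (rank 388), lay between C15 and slou, 540 bp from the TSS of sp3, with 211 in replicate 2 (rank 519) and 412 in replicate 3 (rank 366). From the end of lbe to 5 kb past slou, 115.6 kb, it was the only peak of any list. The stretches without a pooled summit that hold lbe (79.4 kb) and slou (61.3 kb) ranked 88 and 165 of 29994 in length, against a median of 1.18 kb. As for sna, genes fall more often into long stretches, so the distance is the fairer measure. The nearest pooled summit lay 5.59 kb from the lbe TSS, and 28.3% of protein-coding genes lay farther from one. For slou, 4.66% lay farther. C15 itself had no peak in its window in any list.

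**Figure D5:**
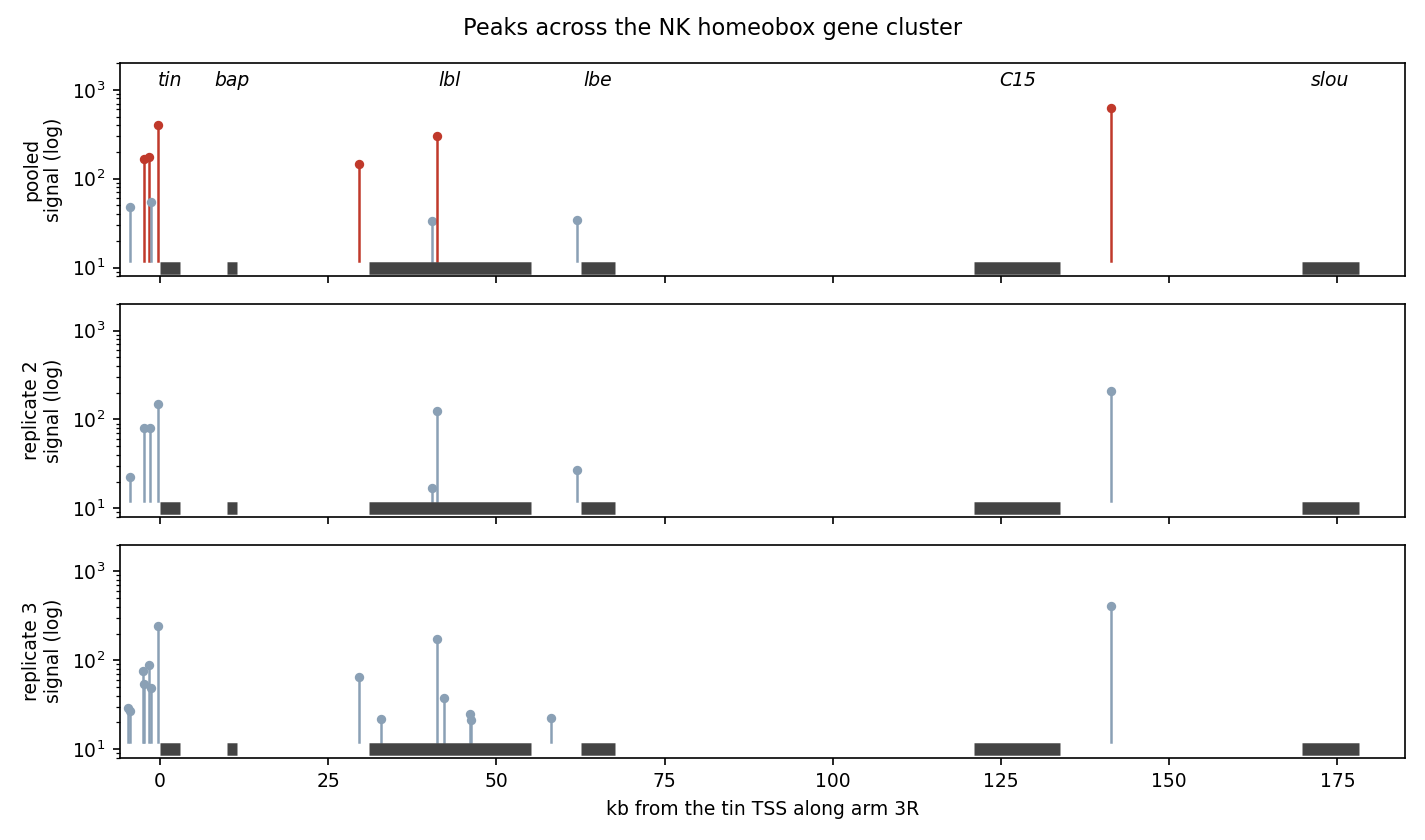
Peaks across the NK homeobox cluster in the pooled list and in each replicate list, by distance in kb from the tin TSS along 3R, with signal on a log scale. Dark bars are the 6 homeobox genes, red stems are IDR peaks and grey stems are other peaks; in all 3 panels the span from lbe to slou holds a single peak.

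The sequences under the 12 IDR summits varied widely in base composition. Their 200 bp windows had a median GC content of 37.8% with a range of 23.0% to 51.0%, against a median of 33.5% and quartiles of 29.5% and 39.0% for all 4576 IDR windows. An E-box (CANNTG) was in 9 of 12 windows and in 57.4% of all IDR windows. The Tinman-type site was in 3 of 12, namely those of bin and of 2 intronic Mef2 peaks, and in 14.3% of all. CAGGTG, a form of E-box bound by Snail, was in 2 of 12, both at Mef2, and in 4.31% of all.

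The remaining words were in 0 to 7 of the 12 windows. CATATG was in 1 window (6.58% of all) and CACATG in 1 (6.95%). The core AAGTG, which lies within the Tinman-type site, was in 7 (39.7%), GAGAG in 2 (19.7%), TAATTA in 1 (19.3%) and the Dref site in 1 (4.11%). AAAATAT was in 3 (29.5%), TTTAAAA in 2 (25.04%) and TAAAATA in 2 (23.4%), words known from earlier results of these data. A Mef2-type site, taken as CTA and TAG with 4 bases between, was in none, against 3.63% of all. Both strands were read. The words CATATG and CACATG, like that of Snail, are also E-boxes, and AAAATAT can overlap TAAAATA. A match describes the letters of the window and not a bound site.

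Other genes of the same programmes were counted from a list of 42. An IDR summit lay in the window of 23 of them (54.8%, against 47.4% of protein-coding genes), and an IDR promoter peak at 6 (14.3%, against 20.3%). Pooled summits were in 33 windows (78.6%, against 73.8%). These shares too lay near the background. Of 9 cardiac regulator genes, 4 had an IDR summit in the window and 0 a promoter peak. Of 8 genes of FGF and dorsal signalling, 6 and 2 did, of 14 muscle identity genes 8 and 2, of 4 visceral mesoderm genes 2 and 1, and of 7 myoblast fusion genes 3 and 1.

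The 6 promoter peaks were of varied strength. The strongest was at org-1, a T-box gene of muscle and visceral mesoderm, at a signal of 506 (rank 579), with 186 in replicate 2 and 317 in replicate 3. Next came stumps, for an adaptor of FGF receptors (343, rank 1220), and mbc, for a factor of myoblast fusion (334, rank 1262), whose summit lay 8 bp from the TSS of its neighbour Nup98-96. Weaker peaks lay at Fas3, for an adhesion protein (183, rank 3238), at htl, the FGF receptor gene of the mesoderm (161, rank 3895), and at sd, for a TEAD factor (153, rank 4210), where the TSS of PGRP-LE was nearer. Ranks in replicates 2 and 3 were 2983 and 6050 at Fas3, 6697 and 3027 at htl, and 8991 and 3029 at sd.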

How the data were processed

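Per the labels, DNA from 2 libraries of CG10147-GFP embryos was mapped by ChIP-seq. The deposited files were 4 peak lists on dm6. Per the labels' file lists, each replicate list and the pooled list came from the alignments and 1 further file whose kind is not stated; the labels name a possible control. The IDR list came from the other 3, and its rows were the 4576 strongest of the 30000 in the pooled list. The peak caller and read filters are not given in the sources used here. Each peak has a signal from the authors' peak caller, in a unit that is not given, and a −log10 q value that the authors deposited, which stopped at 4.13 in the pooled list. Ranks are by signal within a list. The replicate 2 list held 16 mitochondrial peaks, 11 of them above its first nuclear one. Read depth is unknown and no interval was made.

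Genes came from Ensembl release 115 (FlyBase 6.54), without transposable elements. Summits were placed in windows with python 3.11.15, numpy 2.4.6 and pandas 2.3.3, and the counting was checked on planted summits. No test was made, since there is 1 group and choices were made with earlier results of these data known. Those choices were the members, the lists and the A/T-only words. The text names the 8 members, the genes with the TSS nearest to their IDR peaks, and listed genes with an IDR promoter peak; genes at the ends of peak-free stretches, in the NK cluster or beside weaker peaks were named after their values were seen. Alternatives changed the flank, the list, the TSS window, the match distance and the treatment of repeats.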

Additional observations from a re-analysis of the deposited data

How the results depend on the processing

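Which genes had an IDR peak in the window did not depend on the flank: Mef2, tin and bin were the 3 with flanks of 2 kb and 10 kb, with the stronger 2288 IDR peaks, and with the strongest 4576 peaks of either replicate alone. With all pooled peaks there were 5, against 73.8% of protein-coding genes. For the other alternatives, here and for promoter peaks below, the share of protein-coding genes was not counted. The steady 3 is therefore not read as a trait of these genes. The 12 IDR peaks became 4 among the stronger 2288, 8 when summits within 1000 bp were merged, and 49 with all pooled peaks. With 1 replicate left out, the windows held 10 of the strongest 4576 peaks of replicate 3 and 9 of those of replicate 2. The 2 genes with a promoter peak became 1 under 4 alternatives. Mef2 was lost among the stronger 2288 peaks and when summits within 1000 bp were merged, where the Pdrg1 peak stood for both, and tin was lost without soft-masked summits and with a TSS window of 200 bp. Leaving out a replicate left 2 genes, but the site counted at Mef2 was not the same. In replicate 3 alone it was the IDR promoter peak of Mef2 (rank 4477). In replicate 2 alone that peak was outside the strongest 4576 (rank 4748). Mef2 was counted there through a summit near its TSS at 9929615 (rank 4346), where the pooled peak lay below the IDR cut (rank 6555). Of the 12 peaks, 6 were in both replicates when only the strongest peaks of each were used, with no count over all IDR peaks to set beside them. The Tinman-type site was in 1 window at 100 bp and in 4 at 300 bp, and an E-box was in 6 and 11. The shares of all IDR windows at these lengths were not counted, so no excess or lack is read from these counts. No paired analysis was possible because there is a single group. Depth is unknown, so an absent peak shows that none was detected and not that binding was absent.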
